A study of Homo sapiens with 4 samples.

Results

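Translation initiation factors are the proteins, named eIF1 to eIF6, that bring the small ribosomal subunit, the initiator tRNA and an mRNA together at a start codon. Their genes were taken here by name: every row of the count table whose symbol begins with EIF and a digit from 1 to 6, leaving out the eIF2 kinases (EIF2AK), pseudogenes (symbols ending in P or P and digits) and antisense or intronic transcripts. This took 49 of 37450 rows. The rule left out 59 of the 108 rows with that prefix, among them 4 kinase genes and 3 genes of the eIF4E-binding proteins, which are described with the regulators further on. The RNA came from 143B, a human osteosarcoma cell line, with 2 libraries from cells that had received the control siRNA (labelled siNC) and 2 from cells with an siRNA against CBX3 (siCBX3), all taken on day 2 after transfection. CBX3 encodes the heterochromatin protein HP1 gamma. The siNC libraries carry the genotype label WT and the siCBX3 libraries the label CBX3 knockdown, and all are of 1 cell line.

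As background, the eIF4F complex consists of the cap-binding protein eIF4E, the scaffold eIF4G and the helicase eIF4A, and it brings the mRNA to the ribosome. eIF2 carries the initiator tRNA and is reloaded with GTP by eIF2B, a step that is blocked when stress kinases phosphorylate the alpha subunit of eIF2. eIF3 is the large multi-subunit platform on the small ribosomal subunit, and eIF1 and eIF1A guide start codon choice. eIF5 is the GTPase activator of eIF2, and eIF5B acts when the subunits join. Several of these factors are known for raised levels in tumours, eIF4E above all.

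The libraries held 36509298 to 40336907 counts each, and 74.3 to 75.6% of their values between 1 and 20 were even numbers, a pattern that counting both mates of a read pair gives, though the sources used here do not state how pairs were counted. CBX3 was measured at 539 and 508 CPM in siNC and 57.3 and 57.1 CPM in siCBX3 (CPM, counts relative to library size with TMM scaling), a log2 fold change of -3.19 (SE 0.08, adjusted p = 2.7e-20). Of the 10 mesenchymal and osteoblast markers examined 6 exceeded 5 CPM in the mean of all libraries, the rule for every marker list here. They were led by VIM, CD44 and SPARC, while the osteoblast genes ALPL, BGLAP and SP7 were at or near 0. The summed level of that list was 1467 to 1475 CPM in siNC and 3560 to 3635 CPM in siCBX3, with SPARC, VIM, COL1A1 and RUNX2 called higher. RUNX2, the osteoblast lineage transcription factor, had 4.43 and 4.44 CPM in siNC and 5.62 and 6.02 CPM in siCBX3, so it was above 5 CPM only in siCBX3. Of 6 epithelial, 6 leukocyte and 5 endothelial markers 1 each exceeded 5 CPM (EPCAM, CD68 and TIE1), and the summed levels were 14.8 to 14.9 against 10.2 to 10.7, 398 to 432 against 597 to 659, and 95.9 to 105 against 120 to 138 CPM. The part of these marker differences in the results below was not tested. In bulk RNA, fewer cells with a transcript and less of it per cell cannot be told apart.

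Initiation factor transcripts moved in both directions after CBX3 knockdown, and the median change of the group was close to 0. Of the 49 genes 47 passed the filter on low counts, and 13 of them were called higher and 15 lower in siCBX3 at an adjusted p under 0.05, while 19 were not called. A single value in parentheses beside a gene is its log2 fold change, siCBX3 over siNC. EIF1AY and EIF4E1B had too few counts and were not tested. The 28 called genes are 59.6% of those tested, beside 48.4% of all 20999 tested genes, a background that was not matched to the members for count level. In each direction the background was 24.4% called higher and 24% called lower. The levels of the 2 groups did not overlap for 39 of the 47 genes, beside 73.9% of all tested genes. Changes of at least 0.5 on the log2 scale were found for 5 of the 47 genes called higher and 3 of the 47 called lower. Both are smaller shares than the background of 15.8% and 14.9%. In the GRCh38 coordinates of the count table these 8 genes span EIF4G3 chr1:20806292-21176888, EIF2S3L chr12:10505602-10523135, EIF4B chr12:53006158-53042209, EIF3F chr11:7970251-8001862, EIF2A chr3:150546678-150584242, EIF4E3 chr3:71675416-71754773, EIF4A3 chr17:80135214-80147183 and EIF4E chr4:98871684-98930637.

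The median log2 fold change of the 47 genes was -0.014, beside -0.0058 over all tested genes, and their median absolute change was 0.28, beside 0.387 over all tested genes. All members together took 1.51 to 1.53% of the counts of every library. The split between higher and lower depended in part on scaling, since scaling by library totals gave 10 higher and 19 lower and upper-quartile factors gave 10 higher and 18 lower. Over all 13 alternative analyses 20 of the 28 called genes kept their call, 8 lost it in at least 1, and 0 changed direction.

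**Figure D1:**
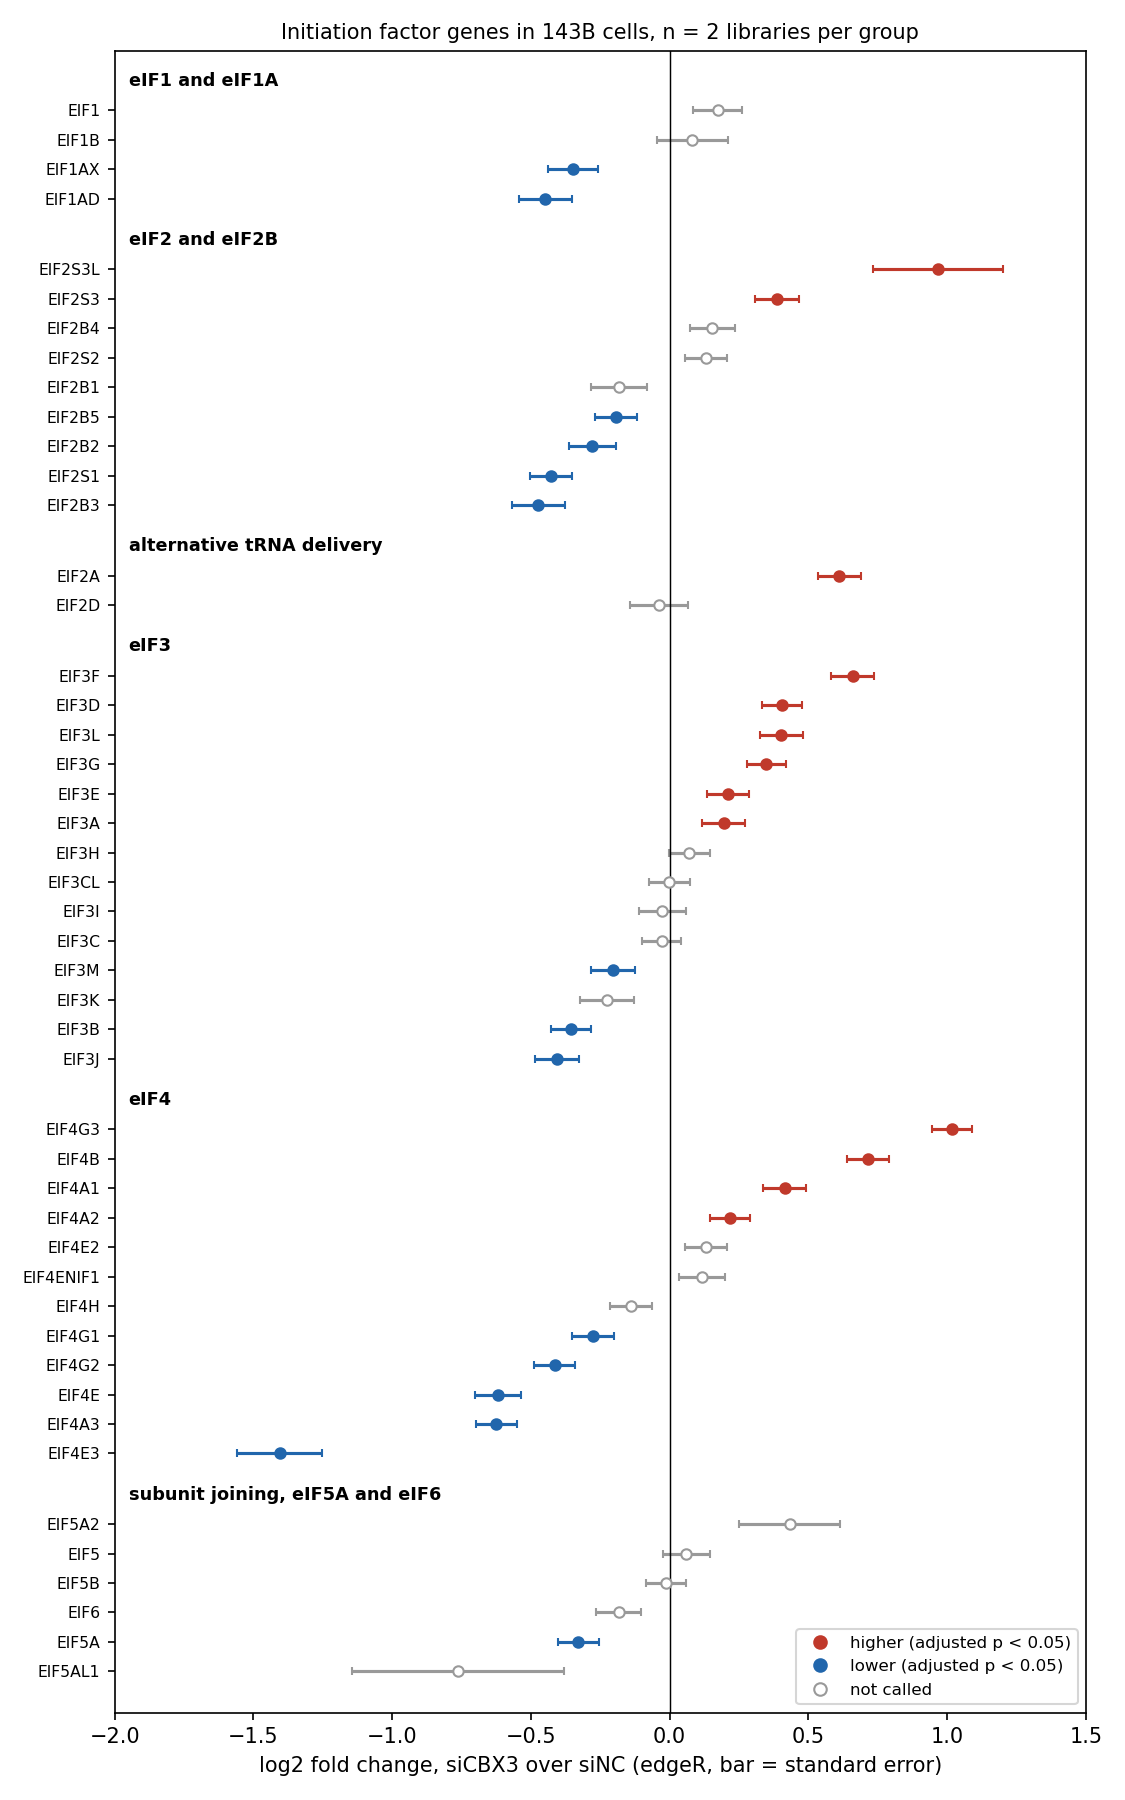
Log2 fold change (siCBX3 over siNC, edgeR fit, bars are standard errors, 2 libraries per group) of the 47 tested initiation factor genes, grouped by complex. Filled red points are called higher, filled blue points lower and open points not called; EIF4G3 at 1.02 and EIF4E3 at -1.41 are the ends of the range.

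The members lie far apart in level. On the deposited RPKM scale, which divides by all annotated exon bases of a row, EIF3A was highest with a mean of 702 in siNC and 761 in siCBX3, and it alone took 32.0 to 36.6% of the counts of all members. EIF3A is a core subunit of eIF3. EIF3CL (260.4 in siNC), EIF2S2 (226), EIF4G1 (159.9), EIF4H (142), EIF5A (139) and EIF4B (102) followed. Among the tested genes the lowest were EIF5AL1 (0.273), EIF5A2 (0.605), EIF2S3L (0.696) and EIF4E3 (0.904). RPKM depends on the annotated length: the row of EIF4E spans 14067 exon bases and gave 5.23 in siNC, although its coding sequence in GENCODE 29 has 744 bases.

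Within eIF4, the group that recognises and unwinds the mRNA, 4 of 12 tested genes were higher, 5 lower and 3 not called. That is 75% called, beside 48.4% of all tested genes. Closely related genes went in opposite directions. The scaffold showed this most. EIF4G3, a paralog of the main scaffold, had 139 and 141 CPM in siNC and 283 and 284 CPM in siCBX3, so that both treated libraries lay above both controls. It rose 2.03-fold (log2 fold change 1.02, SE 0.072, adjusted p = 2.3e-11). EIF4G1, the main scaffold, had 1349.9 and 1223 CPM in siNC and 1053 and 1069 CPM in siCBX3, without overlap, and fell (log2 fold change -0.28, SE 0.075, adjusted p = 0.00352). EIF4G2, also called DAP5, a scaffold that lacks the eIF4E-binding part, had 757 and 699.9 CPM in siNC and 531 and 562 CPM in siCBX3 and fell (log2 fold change -0.41, SE 0.074, adjusted p = 5.7e-05). The call for EIF4G1 was lost without siCBX3 replicate 1 (adjusted p = 0.0707).

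EIF4G3 made up 8.12 and 9.03% of the summed RPKM of EIF4G1 and EIF4G3 in siNC, against 18.8 and 18.6% in siCBX3, while the sum itself was 179.7 and 170.0 in siNC and 152 and 156 in siCBX3. EIF4G1 was the more abundant of the pair in every library. Their coding sequences are 66.1% identical over 4451 aligned bases.

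The cap-binding protein genes included 2 of the 3 called genes that fell by 0.5 or more on the log2 scale. EIF4E, whose protein binds the cap and is rate-limiting for many growth-related mRNAs, had 74.6 and 68.7 CPM in siNC and 44.2 and 49 CPM in siCBX3. It fell to 0.651 of the control level (log2 fold change -0.62, SE 0.083, adjusted p = 1.2e-06), and the 2 groups did not overlap. EIF4E3, a cap-binding paralog, had 8.84 and 10.1 CPM in siNC and 3.35 and 3.8 CPM in siCBX3 and fell to 0.377 of control (log2 fold change -1.41, SE 0.15, adjusted p = 4.4e-08). EIF4E2, known as 4EHP, which binds the cap but represses translation, had 312 and 277 CPM in siNC and 323 and 322 CPM in siCBX3 and was not called (log2 fold change 0.13, SE 0.075, adjusted p = 0.155), though it was called higher without siNC replicate 1 (adjusted p = 0.00716). Of the summed RPKM of the 3 genes EIF4E held 10.8% ± 0.223 (SD, n = 2) in siNC and 6.82% ± 0.472 (SD, n = 2) in siCBX3. The size of this share depends on the annotated exon bases, 14067 for EIF4E, 7177 for EIF4E2 and 10779 for EIF4E3. The low level of EIF4E3 makes its fold sensitive to a pseudocount, and its log2 fold change was -0.52 on log2(RPKM + 1). EIF4ENIF1, the eIF4E transporter 4E-T, was not called (0.12), and 24.2% of the exon bases of EIF4E2 are shared with rows on the other strand.

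The helicase genes differed in direction. EIF4A1, the main helicase of eIF4F, had 364 and 417 CPM in siNC and 501 and 539 CPM in siCBX3 and was higher (log2 fold change 0.41, SE 0.078, adjusted p = 1.1e-04). EIF4A2, its near relative, had 418 and 417 CPM in siNC and 478 and 494 CPM in siCBX3 and was higher by less (log2 fold change 0.22, SE 0.072, adjusted p = 0.0144). EIF4A3, which serves in the exon junction complex and not in eIF4F, had 155 and 152 CPM in siNC and 98.2 and 101 CPM in siCBX3 and fell (log2 fold change -0.63, SE 0.074, adjusted p = 1.5e-07). The groups did not overlap for any of the 3 genes. The call of EIF4A2 was lost with library totals, upper-quartile factors and RPKM, and without either siCBX3 library (adjusted p = 0.0781 without replicate 1 and adjusted p = 0.176 without replicate 2). Rows of other genes share 48.6% of the exon bases of EIF4A1 (all on the same strand, among them a read-through row and small nucleolar RNA rows) and 17.9% of those of EIF4A2, so both counts are uncertain.

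The helicase cofactor EIF4B had 580.0 and 643 CPM in siNC and 987 and 1019 CPM in siCBX3 and rose 1.64-fold (log2 fold change 0.71, SE 0.076, adjusted p = 2.8e-08). Both siCBX3 libraries stood well above both controls. A row on the other strand shares 11.9% of the exon bases of EIF4B. EIF4H, a smaller cofactor of the same helicase, was not called (436 and 448 CPM in siNC and 378 and 426 CPM in siCBX3, log2 fold change -0.14, SE 0.076, adjusted p = 0.138). It was called lower with library totals (adjusted p = 0.028) and with upper-quartile factors (adjusted p = 0.0499), and its value was -0.05 without siCBX3 replicate 1 (adjusted p = 0.746) and -0.23 without replicate 2 (adjusted p = 0.106). EIF4B over EIF4A1 in RPKM was 1.38 and 1.34 in siNC and 1.71 and 1.63 in siCBX3.

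**Figure D2:**
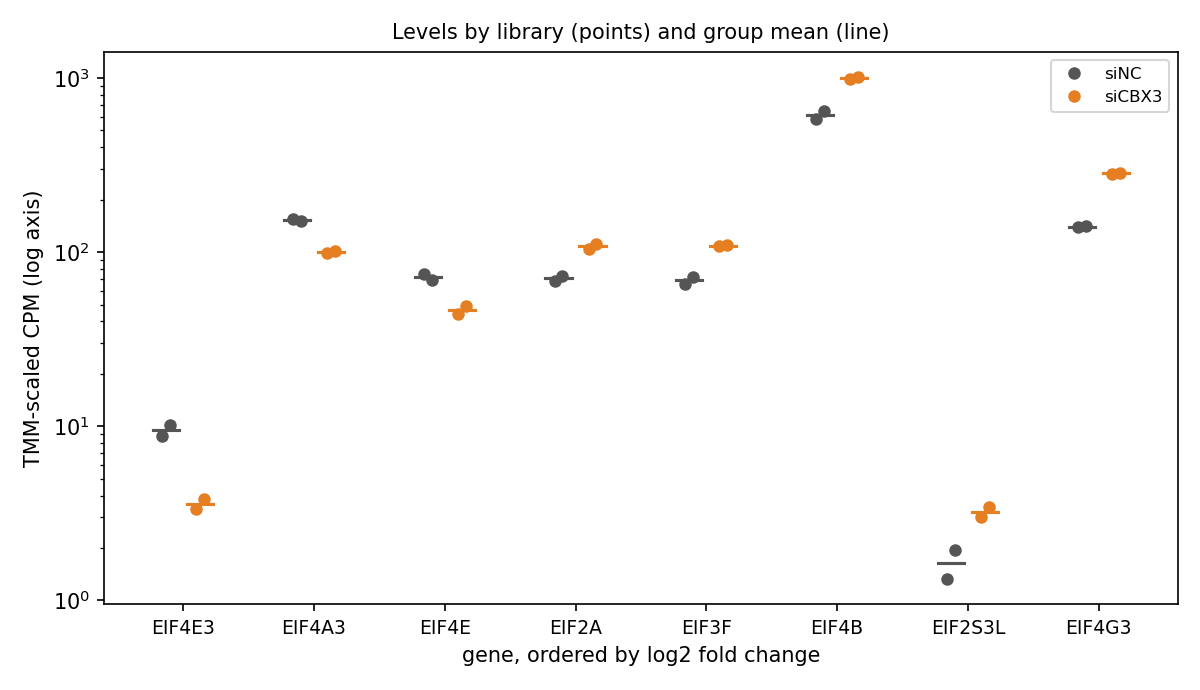
TMM-scaled CPM (log axis) of the 8 called genes that moved by 0.5 or more on the log2 scale, by library (points) with the group mean (line), siNC in grey and siCBX3 in orange. The groups overlap for none of the 8 genes, and EIF4E3, EIF4A3 and EIF4E are lower while EIF2A, EIF3F, EIF4B, EIF2S3L and EIF4G3 are higher in siCBX3.

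**Figure D3:**
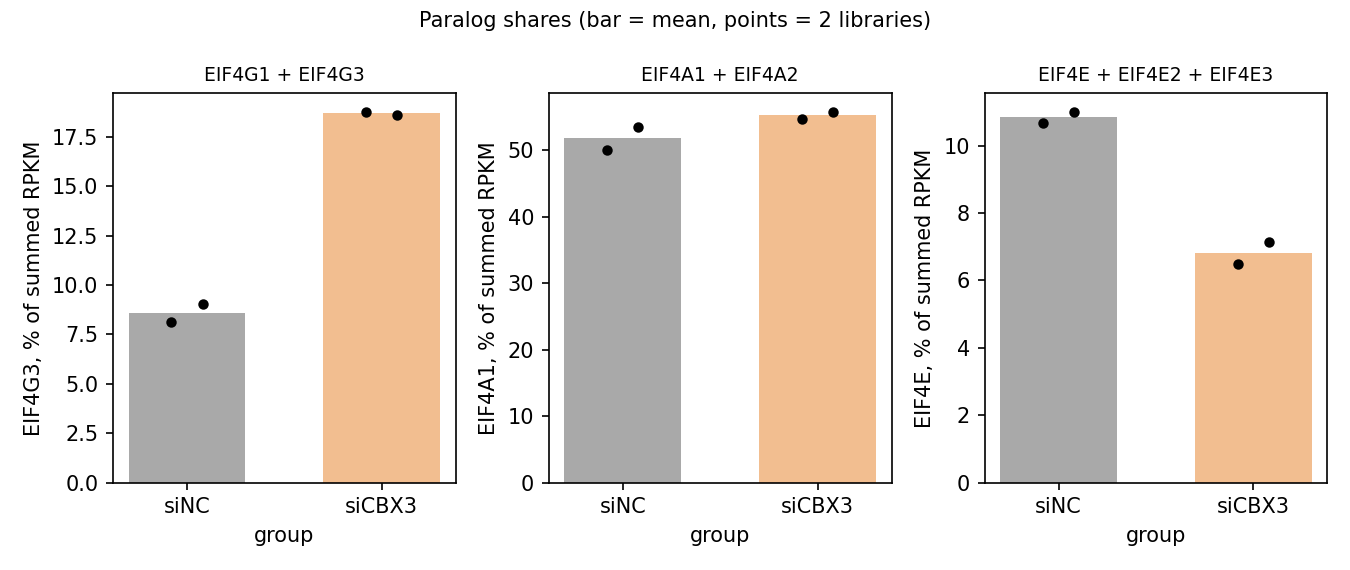
Share of a paralog in the summed RPKM of its family, with bars for the mean and points for the 2 libraries per group. RPKM divides by the annotated exon bases of each row, which differ between paralogs. EIF4G3 rises from 8.57 to 18.7% of EIF4G1 plus EIF4G3, EIF4E falls from 10.8 to 6.82% of the 3 cap-binding genes, and EIF4A1 is at 51.8 and 55.2% of EIF4A1 plus EIF4A2.

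The subunits of eIF2 did not move together. EIF2S1, the alpha subunit that stress kinases phosphorylate, had 240.4 and 218 CPM in siNC and 164 and 177 CPM in siCBX3 and fell (log2 fold change -0.43, SE 0.076, adjusted p = 5.3e-05). EIF2S3, the gamma subunit that binds GTP and the initiator tRNA, had 108 and 124 CPM in siNC and 152 and 152 CPM in siCBX3 and rose (log2 fold change 0.39, SE 0.079, adjusted p = 2.3e-04). Neither gene's groups overlapped. EIF2S2, the beta subunit, had 554 and 616 CPM in siNC and 648 and 633 CPM in siCBX3 and was not called (log2 fold change 0.13, SE 0.075, adjusted p = 0.159), but was called higher without siNC replicate 2 (adjusted p = 0.00772). The RPKM of EIF2S1 over that of EIF2S3 was 1.37 and 1.08 in siNC and 0.663 and 0.716 in siCBX3. EIF2S3L (EIF2S3B in RefSeq and GENCODE 29), a retrocopy on chromosome 12 whose coding sequence is 98.2% identical to that of EIF2S3, had 1.33 and 1.95 CPM in siNC and 3.01 and 3.43 CPM in siCBX3 and rose (log2 fold change 0.97, SE 0.23, adjusted p = 0.00133), and reads of the 2 genes cannot be told apart with certainty. Its log2 fold change was 0.44 on log2(RPKM + 1).

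The exchange factor eIF2B, which reloads eIF2 with GTP, had 3 of its 5 subunit genes lower and none higher. That is 60% called, beside 48.4% of all tested genes, and 24% of all tested genes were called lower. EIF2B3, the gamma subunit, had 24.5 and 24.2 CPM in siNC and 17.9 and 17.1 CPM in siCBX3 (log2 fold change -0.47, SE 0.096, adjusted p = 2.5e-04). EIF2B2 (-0.28, adjusted p = 0.00826) and EIF2B5, the catalytic epsilon subunit (-0.19, adjusted p = 0.0391), fell by less. The call of EIF2B2 was lost without siCBX3 replicate 2 (adjusted p = 0.118), and that of EIF2B5 when siNC replicate 1 (adjusted p = 0.183), siCBX3 replicate 1 (adjusted p = 0.152) or siCBX3 replicate 2 was left out (adjusted p = 0.18), and with DESeq2. EIF2B1 (-0.18) and EIF2B4 (0.15) were not called. EIF2B1 was called lower when replicate 1 of siNC (adjusted p = 0.032) or of siCBX3 (adjusted p = 0.0318) was left out, and EIF2B4 higher without siNC replicate 1 (adjusted p = 0.0197). Of the exon bases of EIF2B2 23.6% are shared with other rows.

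Outside eIF2, the tRNA-delivering factor gene EIF2A had 68.4 and 73 CPM in siNC and 104 and 112 CPM in siCBX3 and rose 1.53-fold (log2 fold change 0.61, SE 0.078, adjusted p = 5.0e-07), with no overlap. EIF2D, which can also deliver a tRNA and takes part in recycling, was not called (-0.04, adjusted p = 0.786).

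eIF3 had 6 of 14 genes higher, 3 lower and 5 not called, which is 64.3% called beside 48.4% of all tested genes. EIF3F, a core subunit, had 65.7 and 72.4 CPM in siNC and 108 and 110.1 CPM in siCBX3 and rose 1.58-fold (log2 fold change 0.66, SE 0.078, adjusted p = 1.6e-07), the one eIF3 gene past 0.5 on the log2 scale. EIF3D, the subunit that can itself bind the cap, rose (0.41, adjusted p = 4.7e-05), as did EIF3L (0.40, adjusted p = 1.5e-04) and the RNA-binding subunit EIF3G (0.35, adjusted p = 2.6e-04). Other rows share 51.8% of the exon bases of EIF3L, most of them with a same-strand row, so its count is uncertain. EIF3E (0.21, adjusted p = 0.0224) and EIF3A (0.20, adjusted p = 0.0407) were called higher by small margins.

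EIF3A had 5065 and 4643 CPM in siNC and 5773 and 5341 CPM in siCBX3, without overlap. Its call was lost in 8 of 13 alternatives, among them scaling by library totals or upper-quartile factors and leaving out siNC replicate 2 (adjusted p = 0.0647), siCBX3 replicate 1 (adjusted p = 0.429) or siCBX3 replicate 2 (adjusted p = 0.126). That of EIF3E was lost in 6, among them leaving out siCBX3 replicate 1 (adjusted p = 0.0662) or replicate 2 (adjusted p = 0.199). The loosely bound subunit EIF3J (-0.40, adjusted p = 1.5e-04), the core subunit EIF3B (-0.36, adjusted p = 2.6e-04) and EIF3M (-0.20, adjusted p = 0.0397) fell. EIF3M lost its call when siNC replicate 1 was left out (adjusted p = 0.0686), and likewise for either siCBX3 library (adjusted p = 0.0591 for replicate 1 and adjusted p = 0.317 for replicate 2).

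EIF3C, EIF3CL, EIF3H, EIF3I and EIF3K were not called. EIF3C had 420.4 and 436 CPM in siNC and 412 and 427 CPM in siCBX3 and EIF3CL, its near-identical copy, 761 and 806 CPM in siNC and 767 and 799 CPM in siCBX3, with log2 fold changes of -0.03 and -0.00087. In GENCODE 29 all 2739 aligned coding bases of the 2 genes are the same, so reads from that stretch cannot be assigned to either gene with certainty and both counts are uncertain. The groups overlapped for both rows, and the RPKM of EIF3CL over that of EIF3C was 4.09 and 4.18 in siNC and 4.21 and 4.23 in siCBX3. EIF3K came close to the threshold (-0.23, adjusted p = 0.0573) and was called lower in 5 of 13 alternatives: library totals (adjusted p = 0.0144), upper-quartile factors (adjusted p = 0.0228), a mean of at least 50 counts and both RPKM analyses. EIF3H (0.07) and EIF3I (-0.03) were further from the threshold.

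Among the start codon factors, EIF1AX, the X-linked eIF1A, had 35.5 and 40.3 CPM in siNC and 28.9 and 30.7 CPM in siCBX3 and fell (log2 fold change -0.35, SE 0.091, adjusted p = 0.0026), and EIF1AD, a gene with an eIF1A-like domain, had 28.4 and 26.5 CPM in siNC and 20.3 and 20 CPM in siCBX3 and fell as well (log2 fold change -0.45, SE 0.094, adjusted p = 3.4e-04). EIF1 had 33 and 37.5 CPM in siNC and 40.2 and 39.3 CPM in siCBX3 and was not called (0.17, adjusted p = 0.11), but was called higher without siNC replicate 2 (adjusted p = 0.0204). Its paralog EIF1B had 8.71 and 9.49 CPM in siNC and 10.2 and 9.13 CPM in siCBX3, with groups that overlapped (0.08, adjusted p = 0.63). EIF1B made up 33.4 and 32.4% of the summed RPKM of the pair in siNC and 32.4 and 30.6% in siCBX3.

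Of the 6 genes grouped as subunit joining, eIF5A and eIF6, 1 was called, 16.7% beside 48.4% of all tested genes. EIF5A, whose hypusine-bearing protein helps ribosomes past difficult stretches and in termination, had 377 and 384 CPM in siNC and 289 and 317 CPM in siCBX3 and fell (log2 fold change -0.33, SE 0.074, adjusted p = 6.9e-04), a call that was lost without siCBX3 replicate 1 (adjusted p = 0.0565). Its paralog EIF5A2 had 3.21 and 3.37 CPM in siNC and 4.03 and 4.85 CPM in siCBX3 and pointed the other way without passing the threshold (log2 fold change 0.43, SE 0.18, adjusted p = 0.0526), and it was called higher without siCBX3 replicate 1 (adjusted p = 0.0368). EIF5A2 made up 0.427 and 0.440% of the summed RPKM of EIF5A and EIF5A2 in siNC and 0.697 and 0.764% in siCBX3. EIF5AL1, a retrocopy 98.9% identical to EIF5A over 462 coding bases, had 0.849 and 1.19 CPM in siNC and 0.567 and 0.633 CPM in siCBX3, and reads of the parent gene cannot be told from its own with certainty (-0.76, adjusted p = 0.104).

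EIF6, which holds the large subunit apart until it is mature, had 55.4 and 54 CPM in siNC and 47.7 and 48.5 CPM in siCBX3 and was not called (log2 fold change -0.18, SE 0.08, adjusted p = 0.0602). It was called lower in 5 of 13 alternatives: library totals (adjusted p = 0.0107), upper-quartile factors (adjusted p = 0.0204), a mean of at least 50 counts and both RPKM analyses. A same-strand row shares 17.3% of the exon bases of EIF6, so its count is uncertain. EIF5, the GTPase activator of eIF2, had 229.5 and 187 CPM in siNC and 212 and 221 CPM in siCBX3, and its control libraries differed more from each other than the groups did (0.06, adjusted p = 0.586). Without siNC replicate 1 it was called higher (0.22, adjusted p = 0.0105), and without siNC replicate 2 the value was -0.08 (adjusted p = 0.386). EIF5B, the GTPase of subunit joining, stood at -0.01 (adjusted p = 0.89).

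To see what the genes that moved have in common at their starts, the RefSeq promoter windows of GRCh38.p14 (250 bases before to 50 after a start) were searched for 42 members, 1 of them matched through a synonym. Transcripts that begin with a C followed by a run of pyrimidines, the 5′ terminal oligopyrimidine type, encode ribosomal proteins, elongation factors and some initiation factors. The longest pyrimidine run that opened with C within 5 bases of an annotated start was taken, a measure added after the changes had been seen. The windows of the 8 genes past 0.5 on the log2 scale are shown, 25 bases before to 15 from the start, with a run of at least 5 in capitals; of several annotated starts, the one with the longest run is shown.
EIF2A: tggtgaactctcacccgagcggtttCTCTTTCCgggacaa
EIF2S3L: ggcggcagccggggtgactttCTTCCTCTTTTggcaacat
EIF3F: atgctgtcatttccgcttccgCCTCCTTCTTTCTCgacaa
EIF4A3: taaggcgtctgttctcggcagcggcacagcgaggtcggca
EIF4B: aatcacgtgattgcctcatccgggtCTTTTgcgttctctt
EIF4E: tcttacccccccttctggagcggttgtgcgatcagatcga
EIF4E3: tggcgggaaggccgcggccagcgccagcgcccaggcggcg
EIF4G3: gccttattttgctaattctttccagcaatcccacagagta
The windows lie at chr3:150546762-150546801 (EIF2A, plus strand), chr12:10505865-10505904 (EIF2S3L, plus strand), chr11:7987312-7987351 (EIF3F, plus strand), chr17:80147114-80147153 (EIF4A3, minus strand), chr12:53006431-53006470 (EIF4B, plus strand), chr4:98929119-98929158 (EIF4E, minus strand), chr3:71754484-71754523 (EIF4E3, minus strand) and chr1:21111369-21111408 (EIF4G3, minus strand).

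A run of at least 5 bases was found for 7 of the 9 higher genes with a window, 4 of the 15 lower ones and 7 of the 16 not called. Over all 42 members with a window it was found in 19, or 45.2%, of which 1 was not tested. Such a run was present in 29.2% of 11624 tested genes with a window. The share was 32.7% of those called higher, 26.1% of those called lower and 29.1% of those not called. Among the higher genes the runs were 14 bases in EIF3F, 12 in EIF2S3, 11 in EIF3D and EIF2S3L, 8 in EIF2A, 6 in EIF4A2 and 5 in EIF4B. EIF4A1 and EIF4G3 had runs of 4 and 3. EIF3A, EIF3E, EIF3G and EIF3L, also called higher, had no window. EIF2S3 and its retrocopy EIF2S3L are counted separately, although their reads cannot be told apart with certainty. Whether the start sequence of the retrocopy is independent of that of its parent was not tested. Long runs were not limited to genes that rose: EIF3M and EIF4G2, which fell, had runs of 9 and 7, and EIF3K and EIF2D, which were not called, had 9 and 8. An annotated start is not a measured one in these cells.

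**Figure D4:**
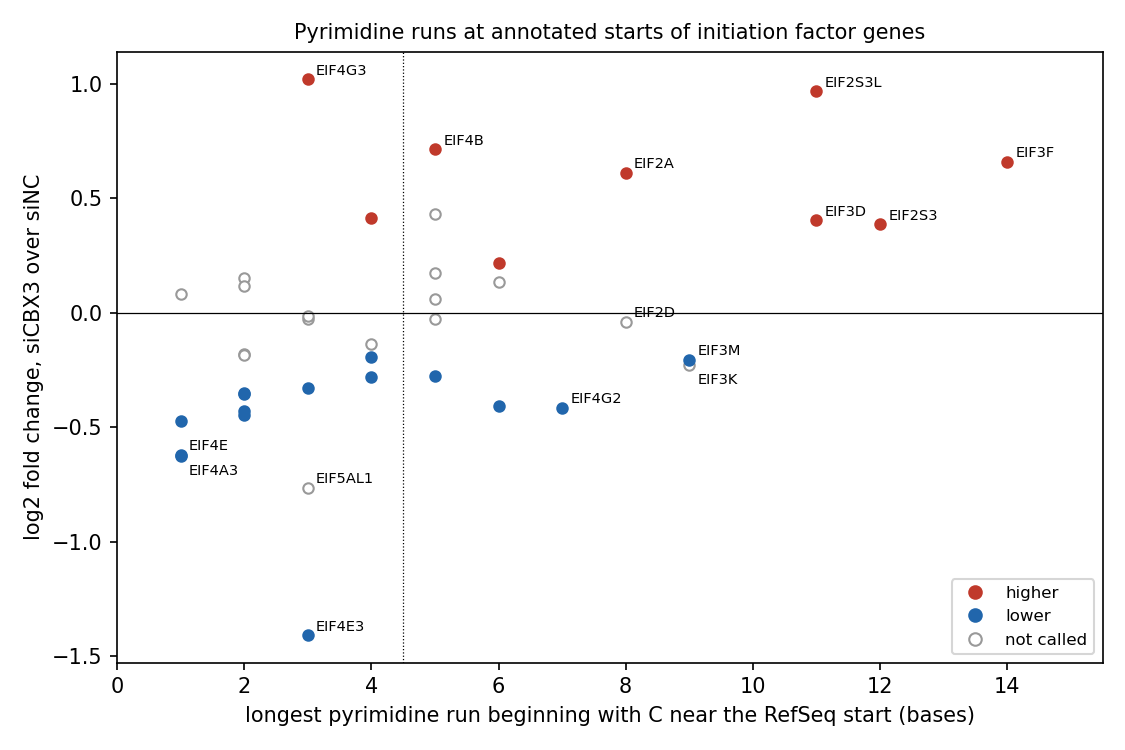
Longest pyrimidine run opening with C within 5 bases of an annotated RefSeq start (x, bases) against the log2 fold change (y, siCBX3 over siNC) of the 40 tested members with a window; red points are called higher, blue points lower and open points not called, and the dotted line separates runs of 5 or more. Runs of 5 or more are found among higher, lower and uncalled genes. The longest are in EIF3F, EIF2S3, EIF3D and EIF2S3L, called higher. EIF3M, called lower, and EIF3K, not called, follow with 9 bases each.

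The same windows were searched on both strands for CACGTG, the E-box bound by MYC and related factors, for TGACGTCA, the cAMP response element, and for TGATGNAA, the element bound by ATF4 with C/EBP partners. CACGTG was found in windows of 10 of the 42 members (23.8%), beside 12.3% of the tested genes, in 2 higher, 4 lower and 4 uncalled genes. TGACGTCA was found in none of the members and TGATGNAA in 1, EIF4E3, beside 3.54 and 2.9% of the tested genes. EIF4E and EIF4G1, 2 of the genes that fell, hold a pair of E-boxes each, in capitals here, and so does EIF5A2, which was not called (0.43).
EIF4E upstream E-box: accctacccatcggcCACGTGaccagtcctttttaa
EIF4E proximal E-box: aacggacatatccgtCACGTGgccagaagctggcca
EIF4G1 upstream E-box: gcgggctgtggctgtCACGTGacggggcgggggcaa
EIF4G1 proximal E-box: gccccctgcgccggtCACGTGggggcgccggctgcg
These lie at chr4:98929338-98929373 (EIF4E upstream, minus strand), chr4:98929185-98929220 (EIF4E proximal, minus strand), chr3:184314447-184314482 (EIF4G1 upstream, plus strand) and chr3:184314524-184314559 (EIF4G1 proximal, plus strand). EIF4A3 and EIF2B3 among the lower genes, and EIF3F and EIF4B among the higher ones, hold 1 each.

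Regulators of initiation were read from lists chosen for their role, with earlier results of these data known. The called shares of these lists are therefore descriptions and not tests of the lists. Of 14 genes that act on the cap-binding proteins, 2 were called higher and 5 lower, 50% in all beside 48.4% of all tested genes. CYFIP2, a relative of the eIF4E partner CYFIP1, fell (27.4 and 26.1 CPM in siNC and 11.2 and 11.1 CPM in siCBX3, log2 fold change -1.26, SE 0.10, adjusted p = 2.4e-10), and MKNK2, the kinase MNK2 that phosphorylates eIF4E, rose (8.39 and 9.35 CPM in siNC and 19.7 and 18.5 CPM in siCBX3, log2 fold change 1.11, SE 0.11, adjusted p = 1.6e-08). GIGYF1, a partner of 4EHP, rose (0.37), and NCBP2, of the nuclear cap-binding complex, fell (-0.39). The eIF4E-binding protein genes EIF4EBP1 (-0.12, adjusted p = 0.223) and EIF4EBP3 (0.41, adjusted p = 0.276) were not called and EIF4EBP2 fell (-0.25, adjusted p = 0.024). EIF4EBP1 was called lower with library totals (adjusted p = 0.0486) and EIF4EBP3 higher without siNC replicate 2 (0.97, adjusted p = 0.0309). EIF4EBP2 lost its call in 6 of 13 alternatives, among them leaving out siNC replicate 2 (adjusted p = 0.0669) or siCBX3 replicate 1 (adjusted p = 0.223). In RPKM, EIF4E over EIF4EBP1 was 0.0533 and 0.0457 in siNC and 0.0312 and 0.0391 in siCBX3.

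Of 13 genes listed as eIF2 kinases and their partners, 4 were higher and 4 lower, 61.5% in all beside 48.4% of all tested genes. PPP1R15A, the stress-induced subunit (GADD34) of the eIF2 alpha phosphatase, rose (284 and 285 CPM in siNC and 488 and 476 CPM in siCBX3, log2 fold change 0.76, SE 0.072, adjusted p = 4.0e-09), as did DDIT3, the stress transcription factor CHOP (7.38 and 9.8 CPM in siNC and 15.6 and 16.6 CPM in siCBX3, log2 fold change 0.90, SE 0.13, adjusted p = 2.5e-06). ATF4 had 143 and 223 CPM in siNC and 247 and 244 CPM in siCBX3. It was called higher (log2 fold change 0.42, SE 0.12, adjusted p = 0.00442). That call was lost in 4 of 13 alternatives: DESeq2, both RPKM analyses and leaving out siNC replicate 1, the lower of the control libraries. Over all 13 its value ranged from 0.13 to 0.78. GCN1, which activates the kinase GCN2 on stalled ribosomes, fell (-0.60), and so did CDC123, an assembly chaperone of eIF2 (-0.33). The kinase genes split, with EIF2AK3 higher (0.25, adjusted p = 0.0265), EIF2AK1 (-0.22, adjusted p = 0.0162) and EIF2AK2 (-0.23, adjusted p = 0.0182) lower, and EIF2AK4 not called (0.08). EIF2AK3 lost its call in 7 of 13 alternatives, among them leaving out siNC replicate 2 (adjusted p = 0.325) or siCBX3 replicate 1 (adjusted p = 0.183). EIF2AK1 lost it without siCBX3 replicate 1 (adjusted p = 0.0858) or replicate 2 (adjusted p = 0.117). EIF2AK2 lost it without the same libraries (adjusted p = 0.077 and adjusted p = 0.111) and without siNC replicate 1 (adjusted p = 0.133). These are mRNA levels, and phosphorylation of eIF2 alpha was not measured.

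Of 12 mTORC1 pathway genes 2 were higher, AKT1S1 (PRAS40, 0.76) and RPS6 (0.35, a call lost on RPKM), and 5 were lower, among them RHEB, the activating GTPase (35.6 and 33.4 CPM in siNC and 23.1 and 22 CPM in siCBX3, log2 fold change -0.61, SE 0.091, adjusted p = 4.7e-06), and the inhibitor DEPTOR (-1.88), which was low at 2.6 and 1.66 CPM in siNC and 0.624 and 0.528 CPM in siCBX3. MTOR itself was not called (0.08, adjusted p = 0.45). Of this list 58.3% were called, beside 48.4% of all tested genes. The shares were 66.7% and 70% in the poly(A)-binding and the scanning lists that follow. Of 6 genes of poly(A)-binding proteins and their partners 2 were higher, PABPC4 (0.22) and PAIP1 (0.20), and 2 lower, PAIP2B (-1.47) and PAIP2 (-0.32), which both inhibit PABP. PABPC4 lost its call in 7 of 13 alternatives, among them leaving out siNC replicate 1 (adjusted p = 0.074), siCBX3 replicate 1 (adjusted p = 0.113) or siCBX3 replicate 2 (adjusted p = 0.091). PAIP1 lost it in 9, among them leaving out the same libraries (adjusted p = 0.131, adjusted p = 0.141 and adjusted p = 0.193). Of 10 scanning, recycling and eIF5A-modifying genes 2 were higher, DENR (0.61) and DHPS (0.32), the first enzyme of hypusine synthesis, and 5 were lower, among them BZW2 (-0.67), a mimic of eIF5, and the recycling factor ABCE1 (-0.31), whose call was lost without siCBX3 replicate 1 (adjusted p = 0.0691).

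Of 11 elongation and termination factor genes 6 were higher and 3 lower, 81.8% in all beside 48.4% of all tested genes. EEF2, the translocase, had 1289 and 1453 CPM in siNC and 2755 and 2682 CPM in siCBX3 (log2 fold change 0.99, SE 0.078, adjusted p = 1.7e-10), and EEF1A1, which brings aminoacyl-tRNA to the ribosome, had 3433 and 3677 CPM in siNC and 5493 and 5571 CPM in siCBX3 (log2 fold change 0.64, SE 0.075, adjusted p = 1.6e-07), a count that is uncertain because the gene has many near-identical processed copies. Its paralog EEF1A2 fell (96.2 and 121 CPM in siNC and 68.2 and 68.4 CPM in siCBX3, log2 fold change -0.67, SE 0.089, adjusted p = 1.1e-06), and EEF1D, an exchange factor for eEF1A, rose (0.53). Over all 6 lists 18 of 66 genes were called higher and 24 lower, 63.6% in all beside the background of 48.4%. Of these 42 called genes 24 kept their call in all 13 alternatives, 18 lost it in at least 1 and 0 changed direction. Of the 9 elongation and termination genes with a RefSeq window 4 had a pyrimidine run of at least 5, EEF2 and EEF1A1 with 7 bases and EEF1B2 with 16 among the higher genes and EEF2K with 5 among the lower. The share over tested genes was 29.2%. In other lists such a run was found in 4 of 10 genes acting on the cap-binding proteins and 2 of 12 eIF2 kinases and partners. It was found in 3 of 9 genes of mTORC1, 0 of 4 of the poly(A)-binding list and 2 of 10 of scanning, recycling and eIF5A modification. EEF1B2 lost its call as higher in 5 of 13 alternatives, among them leaving out siCBX3 replicate 2 (adjusted p = 0.412), and EEF2K lost its own as lower without siCBX3 replicate 1 (adjusted p = 0.0678) or replicate 2 (adjusted p = 0.0849).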

How the data were processed

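The deposited files are 2 tables with a column for each library: raw counts per gene, and RPKM values that the authors derived from them (both per the file headers). Recomputing RPKM from the counts, lengths and totals gave the deposited values within 3.79e-07. Per the submitters' processing notes, Trimmomatic 0.36, STAR 2.5.3a, featureCounts of Subread 1.5.1 and GRCh38 were used, and the sources used here do not give annotation or strand settings. The siNC libraries total 37318382 and 40336907 counts and the siCBX3 libraries 36509298 and 38717507. No label calls the replicates separate cultures: p-values here reflect the spread among 4 libraries, which may be technical. With 2 residual and 22.0 prior degrees of freedom, the spread used for a gene comes mostly from the other genes. With 2 libraries per group an exact permutation test cannot reach the threshold, and none was run.

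Counts were analysed with edgeR 4.0.16 in R 4.3.3. The filter was filterByExpr at a minimum count of 10 and a minimum total of 15, libraries were scaled with TMM factors, and group was the only term of the quasi-likelihood model (2 residual and 22.0 prior degrees of freedom). Calls used Benjamini-Hochberg adjustment over 20999 genes and a threshold of 0.05. SE is the size of the log2 fold change divided by the square root of F. The scripts were tested on simulated data. DESeq2 1.42.0, limma 3.58.1 (voom, and log2 RPKM with pseudocounts of 1 and 0.1), other scalings and filters, each library left out and a replicate block were the alternatives.

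Members and lists were chosen with earlier results of these data known. By the naming rule, values per library are given for called members that moved by 0.5 or more on the log2 scale, for the core factors EIF4E, EIF4G1, EIF4A1, EIF2S1, EIF5A and EIF6, for paralog groups and near-identical copies, and up to 4 genes of each list with the smallest adjusted p are named; further genes are named for their role. The pyrimidine-run measure was added after the changes were known. Exon bases shared between rows come from the coordinates of the count table. Start windows came from RefSeq (GRCh38.p14). Coding-sequence identity, used in place of protein identity, is the share of identical bases in a global alignment of the longest coding sequences in GENCODE 29 (Biopython).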

Additional observations from a re-analysis of the deposited data

How the results depend on the processing

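The counts of called genes, the median of the members and the log2 fold changes of CBX3, the tested members and the list genes were recomputed under 13 alternatives (12 for EIF5AL1, which the filter at a mean of 50 counts removes). Marker values, paralog shares and promoter shares were not recomputed. The counts of members had 2 more call rules. A limit of 0.5 on the absolute log2 fold change left 5 genes higher and 3 lower. Keeping only the 20 tested members that share no exon bases with another row left 6 higher and 4 lower. The 27 tested members that share some had 7 higher and 11 lower. Those sharing none include EIF2S3L, EIF3C, EIF3CL and EIF5AL1, whose near-identical copies lie elsewhere. The other settings gave 10 to 16 members higher and 12 to 19 lower. On log2(RPKM + 1) and log2(RPKM + 0.1) 10 genes of the fixed lists were higher. The median log2 fold change of the members was -0.093 with library totals, -0.080 on log2(RPKM + 1) and -0.094 on log2(RPKM + 0.1), and -0.042 to 0.028 with 1 library left out; library totals moved the median of all genes by -0.080.

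The genes that changed sign were all uncalled in the main analysis. EIF3CL was 0.0020 with DESeq2 and 0.0098 with no low-count filter. EIF3H was -0.0085 with library totals and -0.0089 and -0.0094 on log2(RPKM + 1) and log2(RPKM + 0.1). EIF5 was -0.017, -0.012 and -0.012 under the same 3 settings. Leaving out 1 library gave -0.14 to 0.074 for EIF2D, -0.042 to 0.042 for EIF3CL, -0.11 to 0.054 for EIF3I, -0.080 to 0.22 for EIF5 and -0.062 to 0.031 for EIF5B. Of the 24 uncalled list genes 11 changed sign in at least 1 alternative, EIF2AK4 and MTOR among them. EIF2AK4 was -0.0031, -0.0030 and -0.0034 and MTOR -0.0031, -0.0023 and -0.0025 with library totals, log2(RPKM + 1) and log2(RPKM + 0.1), and MTOR was -0.00012 to 0.16 with 1 library left out. The causes were not tested. With the replicate number as a block, 14 members were higher and 15 lower, EIF5A2 among the higher (0.43, adjusted p = 0.0409); same-numbered libraries deviated together with a correlation of 0.029 across genes, and the numbers were not taken to pair them. Of the 19 uncalled members 10 were called in at least 1 alternative. With 1 library left in a group, that library is assumed to vary like the other group. Small changes in genes of few counts are limited by depth.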
